A study of Mus musculus with 3 samples.

Results

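The authors deposited a raw count table of 24695 cells and a normalised table of fewer cells. The cells described here are the 2 sides of that difference. A cell was called kept when its column was present in both tables and left out when it was present in the raw table alone. Of the 24695 cells, 13511 were kept and 11184 were left out. The kept share was 54.7% ± 2.16 (SD, n = 3 runs), with 4174 of 7670 cells in run 1, 5010 of 8802 in run 2 and 4327 of 8223 in run 3.

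The cells came from retinas of adult mice that carried Glast-CreERT2, Yap5SA and R26R-tdTomato, each as 1 transgenic allele. Tamoxifen induced the Cre and the retinas were then injected with N-methyl-D-aspartate (NMDA), which overstimulates and kills retinal neurons. After 2 days, the tdTomato-positive fraction was collected by flow sorting and made into 10X Chromium libraries (3' v2 kit). All 3 runs hold this genotype and treatment, and the labels describe no uninjured retina, no retina without Yap5SA and no other control. Cre was driven by Glast (Slc1a3), which astrocytes also express, and the labels do not say whether the runs were separate animals, so any p-value measures only the spread between 3 runs that may be technical repeats.

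Müller glia are the radial glia of the retina. They recycle glutamate and retinoids for the neurons around them, and they respond to injury with gliosis, in which structural proteins such as GFAP accumulate. YAP is a transcriptional coactivator that the Hippo kinases hold in the cytoplasm by phosphorylation, and with TEAD factors it switches on growth genes. Yap5SA lacks the serines that these kinases modify. In a droplet experiment, authors commonly set aside droplets of low quality and cell types outside the study. How the cells of the normalised table were chosen is not given in the sources used here. If they were chosen on these counts, the gene differences below describe that choice, and their p-values measure how alike the difference was in the 3 runs. They are no effect of a treatment.

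No simple limit on the usual quality measures separated the 2 sides. Of the 11184 left-out cells, 11053 (98.8%) lay inside the ranges of unique molecular identifiers (UMIs, 1 per captured RNA molecule), detected genes and mitochondrial share that the kept cells of their run spanned. The other 131 lay above or below at least 1 of these ranges of their run. The highest mitochondrial share of a kept cell was 15%, 14% and 14.1% in runs 1, 2 and 3, against 24.5%, 33.2% and 32.8% among left-out cells. The highest number of detected genes was 6855, 6859 and 6746 among kept cells and 7391, 7590 and 7069 among left-out cells.

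The typical kept cell was nevertheless larger and held a smaller mitochondrial share. Median UMIs per cell were 10652, 13021 and 11243 in kept cells of runs 1, 2 and 3 and 8902, 9760 and 8162 in left-out cells. Each kept value was above every left-out value, and the mean difference was 2697 UMIs. Medians of detected genes were 3150, 3464 and 3156 against 2870, 2974 and 2646. The median share of UMIs from the mitochondrial genome was 4.34%, 4.10% and 4.80% in kept cells and 5.18%, 5.15% and 6.07% in left-out cells, again without overlap. The share from ribosomal protein genes was 18.2%, 20.5% and 20.9% against 17.1%, 20.2% and 19.2%, and these ranges overlapped. All 4 differences had 1 direction in 3 of 3 runs, and the exact two-sided sign-flip permutation test gave its smallest possible p of 0.25 for each, so this design cannot reach 0.05.

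**Figure D1:**
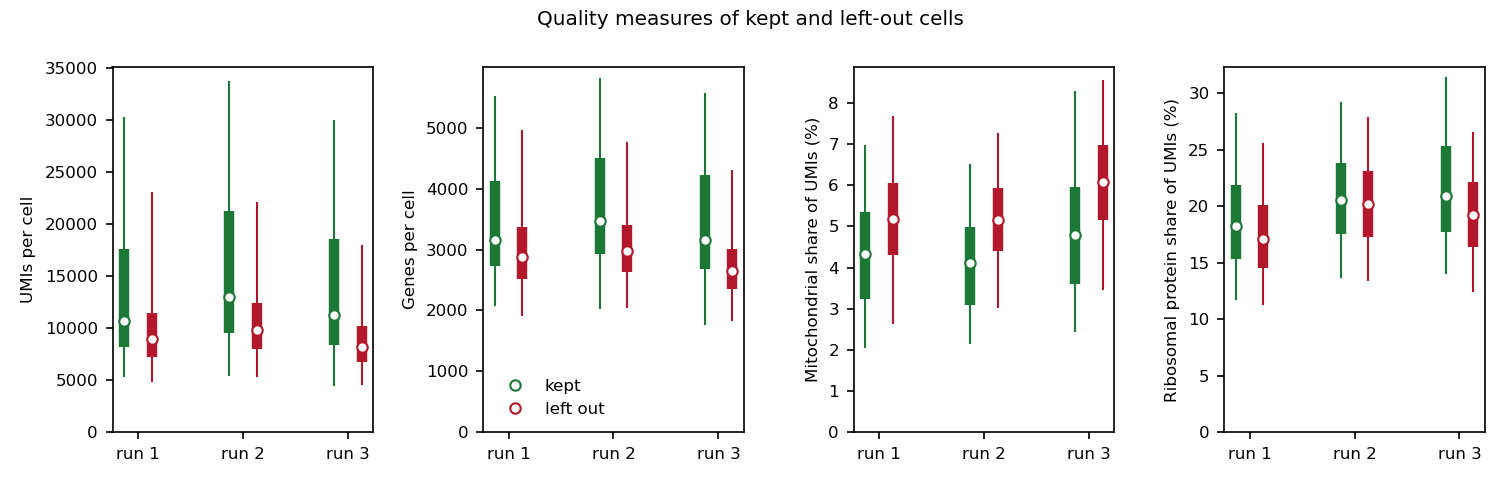
Quality measures per cell on the vertical axes (UMIs, detected genes, mitochondrial and ribosomal protein shares of UMIs in percent) for kept (green) and left-out (red) cells of each run. Circles are medians, thick bars run from the 25th to the 75th percentile and thin lines from the 5th to the 95th, and the distributions overlap broadly although kept medians of UMIs are higher and mitochondrial medians are lower in each run.

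Both measures graded the kept share without deciding it. When the cells of a run were split by mitochondrial share into 5 groups of equal size, 80.3% ± 5.32 (SD, n = 3 runs) of the lowest group and 34.5% ± 2.46 of the highest were kept. By UMIs the kept share was 41.3% ± 3.56 in the lowest group, 38.7% ± 6.68 in the next and 80% ± 5.24 in the highest. The shares of the 2 lowest groups differed by less than their spread between runs.

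Transcriptional state divided the cells more sharply. Clustering all 24695 cells together, with no use of the kept label, gave 23 clusters. In 9 of them at least 75% of the cells were kept, in 9 others at most 15% were kept, and these 18 held 78.2% of all cells. Among the 15 nearest neighbours of a kept cell in expression space, 88.7%, 88.9% and 85.4% were also kept in runs 1, 2 and 3. Around a left-out cell 19.8%, 18.2% and 13.9% of neighbours were kept. These shares describe the cells and carry no test, since neighbours share a library and the clustering used the same counts.

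The order of the measures can be put on 1 scale by assigning each cell of a run to the side that its cluster or its value had in the other runs. The cluster gave the deposited side for 79.7% ± 3.34 of cells (SD, n = 3 runs), and for 83.2% ± 2.95 and 83.1% ± 1.05 at coarser and finer clustering. Rod photoreceptor transcripts gave it for 67.8% ± 2.26, mitochondrial share for 64.7% ± 2.3, UMIs for 62.8% ± 3.44, detected genes for 62.3% ± 3.46 and ribosomal share for 54.6% ± 0.941. Calling every cell kept is right for 54.7% ± 2.16. The values for mitochondrial share, UMIs and genes overlapped one another across runs, while the cluster values lay above all of them in each run.

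**Figure D2:**
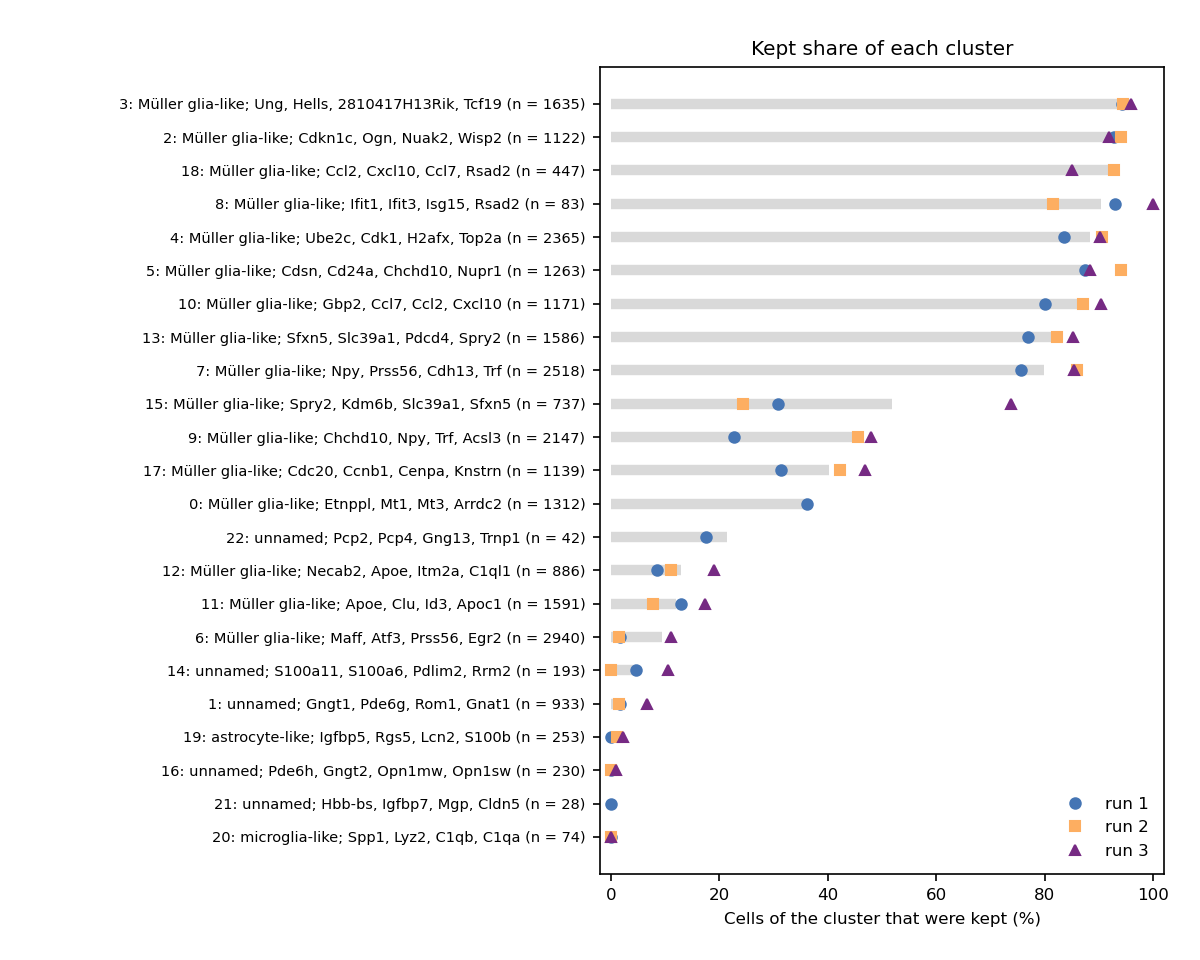
Percent of each cluster's cells that were kept, over all runs (grey bar) and in each run with at least 5 cells of the cluster (symbols). Labels give the cluster number, its name, 4 of its leading genes and its number of cells, and the clusters fall into a kept set at the top, a left-out set at the bottom and 5 between.

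The mostly kept clusters included some led by genes of DNA replication and mitosis. Cluster 3, led by the replication genes Ung, Hells, Mcm6 and Mcm5, was kept in 94.9% of 1635 cells (95% exact binomial interval 93.7 to 95.9, for counting error only). Cluster 4, led by the mitotic genes Ube2c, Cdk1, Top2a and Aurkb, was kept in 88.4% of 2365 cells. Cluster 2, led by Cdkn1c, which encodes an inhibitor of cell division, and by Ogn and Wisp2, was kept in 92.9% of 1122. Its 3 runs lay close together, at 92.7%, 94.1% and 91.8%.

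Müller glia-like clusters in which Igfbp2 reached 1000 CPM (counts scaled to a common library total) held 27.1% ± 0.548 of all cells (SD, n = 3 runs). They held 41.1% ± 1.63 of kept cells and 10.4% ± 1.73 of left-out cells. Igfbp2 encodes a secreted binder of insulin-like growth factors. The 5 clusters in this group were 2, 3, 4, 17 and 18, and 4 of them were mostly kept. Outside this group, Igfbp2 was at 2473 CPM in the unnamed cluster 14 and 2599 CPM in the astrocyte-like cluster 19. It was at 1058 CPM in the unnamed cluster 22. These clusters were kept in 4.66%, 1.19% and 21.4% of their cells.

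The other mostly kept clusters had leading genes of several kinds. Cluster 10, led by Gbp2, Ccl7, Ccl2 and Cxcl10, was kept in 86.9% of 1171 cells, of which 1115 came from run 2. Cluster 8, led by interferon response genes (Ifit1, Ifit3, Isg15), was kept in 90.4% of 83 cells. Cluster 18 of the Igfbp2 group, which shares leading chemokine genes with cluster 10 (Ccl2, Cxcl10, Ccl7), was kept in 92.4% of 447, of which 424 came from run 2. Interferon response genes were also among the leading genes of cluster 10 (Gbp2, Isg15, Ifit1) and cluster 18 (Rsad2, Isg15, Zbp1). Cluster 5, led by Cdsn, Cd24a and Hmga2, was kept in 88.3% of 1263 cells. Clusters 7, led by Npy and Rlbp1, and 13, led by Sfxn5 and Slc39a1, were kept in 79.9% of 2518 and 81.7% of 1586 cells.

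The left-out clusters included the other cell types of the sort. No cell of the microglia-like cluster 20 (Lyz2, C1qb, C1qa) was kept, which for 0 of 74 cells allows a share of up to 4.05%. None of the 28 cells of cluster 21 was kept either, a count that allows up to 10.7%. That cluster mixed blood and vessel genes (Hbb-bs, Hba-a1, Cldn5) and stayed unnamed. Of 253 cells in the astrocyte-like cluster 19 (S100b, Igfbp5, Ntrk2), 3 were kept. Of 230 cells in cluster 16, led by the cone genes Pde6h, Gngt2 and Opn1mw, 1 was kept (0.435%, 95% exact binomial interval 0.0110 to 2.40).

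Photoreceptor-rich droplets were left out although they carried Müller transcripts. Cluster 1, with Gngt1, Pde6g and Rom1 among its leading genes, was kept in 2.47% of 933 cells, and its summed profile held Gngt1 at 589 CPM beside Glul at 2747 and Rlbp1 at 1871 CPM. All 10 Müller markers reached 100 CPM in it, as they did in cluster 16. The median Müller marker of cluster 1 was at 1.77 times its level elsewhere, and cluster 16 passed for both rods and cones. Neither cluster was therefore given a cell type name. Cluster 14, a small unnamed cluster led by S100a11 and S100a6, was kept in 4.66% of 193 cells. Its leading genes included the cell division genes Rrm2 and Cdk1, and it held Igfbp2 at 2473 CPM and Mki67 at 57.2 CPM. Its left-out cells had a median of 4977 UMIs, the lowest of any cluster's left-out cells.

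Müller glia-like cells were left out too, and in larger numbers than the other types. Cluster 6, led by the immediate early genes Maff, Atf3, Egr2 and Junb, was kept in 9.39% of 2940 cells. Run 3 supplied 2423 of those cells, and the kept share was 1.60%, 1.53% and 11.1% in runs 1, 2 and 3. Cluster 11, led by Apoe, Clu and Id3, was kept in 12.1% of 1591 and cluster 12, led by Necab2 and Apoe, in 12.9% of 886. Immediate early genes are switched on within minutes of a stimulus, and Apoe encodes the lipid carrier that Müller glia secrete.

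The named classes therefore differed between the sides as follows. Müller glia-like clusters held 99.7% ± 0.217 of kept cells (SD, n = 3 runs) and 84.4% ± 8.92 of left-out cells. In left-out cells the run values were 74.1%, 88.7% and 90.4%, so run 1 carried the most other cells. Clusters with another name or none held 1753 cells, of which 45 were kept. Of the 22942 Müller glia-like cells, 13466 were kept, and the 9476 left out are most of the 11184 left-out cells. The Müller glia-like name rests mainly on no other type passing. The microglia-like and astrocyte-like clusters also held 7 Müller markers at 100 CPM.

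The 5 remaining clusters were divided. Cluster 15, led by Spry2 and Kdm6b, was kept in 30.8% and 24.3% of its cells in runs 1 and 2 and in 73.7% in run 3. Cluster 9, led by Chchd10 and Npy, came mainly from run 2 (1845 of 2147 cells) and was kept in 44.5%. Cluster 0, led by Etnppl, Mt1 and Mt3, held 1311 cells of run 1 among 1312 and was kept in 36.2%. The dividing cluster 17 was kept in 40.3% of 1139 cells and is described at the end, while the bipolar cell genes of cluster 22 (42 cells) left it unnamed.

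More of the kept than of the left-out cells carried transcripts of dividing cells. Each cell was thinned at random to 1000 UMIs so that depth would not set the class, and cells with at least 2 UMIs of the 55 listed G2 and M phase genes were counted. They made up 58.1%, 58.1% and 56.6% of kept cells and 48.1%, 43.6% and 39.6% of left-out cells, a mean difference of 13.9 percentage points (higher in 3 of 3 runs, exact two-sided sign-flip p = 0.25, the smallest possible). Among cells matched for depth the difference was 4.54 points. The list includes genes that resting cells also express, so the share is not a share of cells in mitosis. For the S phase list the shares were 33.8% ± 1.76 of kept and 15.6% ± 2.95 of left-out cells (SD, n = 3 runs). Without thinning, 99.6% of kept and 99.5% of left-out cells held 2 UMIs of the G2 and M list.

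Rod transcripts tracked the left-out side in nearly every state. Of cells with no UMI of the 11 rod genes among 1000 UMIs, 69.7%, 70.6% and 69.4% were kept in runs 1, 2 and 3. The kept share was 54.8% ± 3.21 (SD, n = 3 runs) with 1 such UMI, 35.4% ± 5.22 with 2 to 3, 17.7% ± 4.06 with 4 to 7 and 6.82% ± 3.66 with 8 to 15. None of the 42 cells with 16 or more was kept, which allows up to 7.14%. The run values of neighbouring classes did not overlap, and the order was the same in each. Without clusters 1 and 16, which photoreceptor genes lead, the shares were 70.2%, 56.2%, 38.2%, 21.3% and 10.9%.

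The same held among cells of 1 cluster. In the 34 pairs of a cluster and a run with at least 20 cells on each side, from 15 clusters, the summed level of the rod list was lower in kept cells in 33. The exception was cluster 18 in run 2. The median log2 ratio of kept over left out, with 20 CPM added to each level, was -0.930. In those 34 pairs the median mitochondrial share was lower in kept cells in 18 and the median UMIs were higher in 15. The level of Gngt1 was 21.4 CPM in the microglia-like and 11.8 CPM in the astrocyte-like cluster, which should not express it, against 34.5 to 109.8 CPM across the 9 mostly kept clusters and 104 to 219.6 CPM across the mostly left-out Müller glia-like clusters 6, 11 and 12, so these ranges overlapped slightly. Whether rod RNA in Müller glia-like droplets was free in the cell suspension, attached or from a second cell was not tested.

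**Figure D3:**
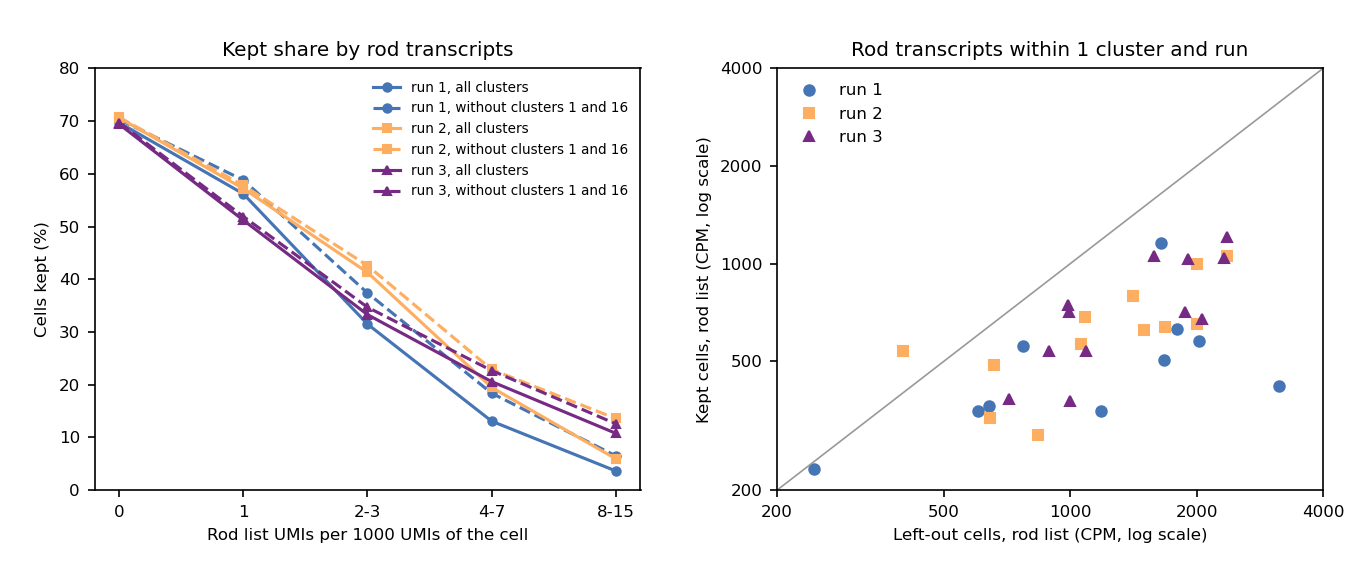
Left, percent of cells kept against rod list UMIs per 1000 UMIs of the cell, per run, with all clusters (solid) and without clusters 1 and 16 (dashed). Right, summed rod list level of kept against left-out cells for each cluster and run with at least 20 cells a side, on log scales in CPM, with the line of equality; 33 of 34 points lie under it.

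Raw counts were then summed over the cells of each side and run, giving 6 profiles, and compared with edgeR's quasi-likelihood test with the run as a block. In such sums, fewer cells of a type and less RNA per cell cannot be told apart. Of 14785 genes tested, 4926 (33.3%) were higher and 4655 (31.5%) lower in kept cells at an adjusted p under 0.05, and the median log2 ratio was -0.01. In 8931 cells from each side matched for UMIs within each run (depth-matched cells), 3018 (21.1%) of 14296 genes were higher and 3006 (21%) lower. With most genes past the threshold in all cells, the size of a change says more than its call. Values below are log2 of kept over left out with a standard error (SE), and levels are in CPM.

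The 12 largest increases included the cell division genes Cdk1, Top2a, Prc1, Ube2c and Mcm6. Cdk1 (chr10:69335146-69352938, mm10), the kinase that starts mitosis, was at 212, 231 and 249 CPM in kept cells of runs 1, 2 and 3 and at 81.3, 55.9 and 51.7 CPM in left-out cells. The groups lay far apart, with a log2 ratio of 1.97 (SE 0.16, edgeR adjusted p = 0.000210). Top2a, which untangles replicated DNA, was higher by 1.91 (SE 0.16), Prc1, a bundler of spindle microtubules, by 1.89 (SE 0.10) and Ube2c, an enzyme that marks mitotic proteins for destruction, by 1.84 (SE 0.10). Mcm6, a subunit of the replicative helicase, was higher by 1.72 (SE 0.15).

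Igfbp2 (chr1:72824503-72852474, mm10) was the most abundant of the 12 largest increases. Its level was 2017, 1538 and 1663 CPM in kept cells and 759, 513 and 514 CPM in left-out cells. No left-out profile reached the lowest kept one, and the log2 ratio was 1.64 (SE 0.05, edgeR adjusted p = 5.22e-05). Tinagl1, a matrix protein gene, had the largest ratio of the 12 at 2.03 (SE 0.08). Vgll3, a TEAD cofactor, was higher by 1.70 (SE 0.08) and Cnn2, an actin-binding calponin, by 1.66 (SE 0.05). The others were Tcf19 at 1.85 (SE 0.14), Pdlim2 at 1.70 (SE 0.10) and Anxa3 at 1.64 (SE 0.08). In depth-matched cells Igfbp2 was higher by 0.78, Cdk1 by 0.93 and Tinagl1 by 1.31.

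Lists of cell cycle genes were higher in kept cells almost throughout. All 43 S phase genes passed the test upward, with a median log2 ratio of 1.47. Of 55 G2 and M phase genes 54 were higher and 1, Ckap5, was lower, with a median of 1.13. In depth-matched cells the counts were 41 of 43 S phase genes higher (median 0.64), and 31 higher and 5 lower of 55 G2 and M phase genes (median 0.22). Among 20 G1 regulators 18 were higher, with the D cyclins Ccnd1 at 1.34 (SE 0.07), Ccnd2 at 1.42 (SE 0.06) and Ccnd3 at 0.73 (SE 0.05), while Cdkn1b and Rb1, which restrain entry into the cycle, were lower. Mki67, present in cycling cells of every phase, was at 53, 80.6 and 76.6 CPM in kept and 25.9, 32.2 and 26.0 CPM in left-out cells.

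YAP targets were also higher in kept cells, with exceptions among the best known. Of 21 tested, 14 were higher and 1 was lower, with a median of 0.44, and in depth-matched cells 11 were higher and 3 lower, with a median of 0.18. Amotl2, which encodes a feedback inhibitor of YAP, was at 174, 156 and 225 CPM in kept and 76.4, 61.4 and 102 CPM in left-out cells, without overlap (log2 ratio 1.30, SE 0.06, edgeR adjusted p = 8.53e-05). The receptor tyrosine kinase gene Axl was higher by 1.01 (SE 0.05). Ctgf was lower by 0.37 on the log2 scale (log2 ratio -0.37, SE 0.06), and Cyr61 did not pass the test, at 1228, 1216 and 1589 CPM in kept and 1296, 1412 and 2066 CPM in left-out cells (log2 ratio -0.15, SE 0.07, edgeR adjusted p = 0.0927).

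The Hippo pathway's own components gave 13 higher and 0 lower of 18, with a median of 0.34 (8 higher, median 0.12, in depth-matched cells). Tead1, the DNA-binding partner of YAP, was higher by 0.80 (SE 0.06) and Wwtr1, which encodes the YAP relative TAZ, by 0.34 (SE 0.07). Yap1 itself was at 21.9, 26.6 and 24.8 CPM in kept and 24.3, 27.7 and 29.0 CPM in left-out cells, and its log2 ratio of -0.07 (SE 0.06) did not pass the test (edgeR adjusted p = 0.315). The count on Yap1 does not check the transgene, because the deposited table has 1 row for the gene and does not mark Yap5SA reads.

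Müller identity genes ran the other way. Of 29, 26 were lower in kept cells and 1, Lhx2, was higher, with a median of -0.63. In depth-matched cells 17 were lower and 3 higher, with a median of -0.23. Apoe (chr7:19696109-19699188, mm10) was at 3252, 2765 and 2923 CPM in kept and 7325, 7047 and 8044 CPM in left-out cells, without overlap (log2 ratio -1.25, SE 0.07). Glul (chr1:153899944-153909723, mm10), the enzyme that turns glutamate into glutamine, had a log2 ratio of -0.95 (SE 0.05) and Rlbp1, the retinoid carrier, one of -0.41 (SE 0.05). Slc1a3, the glutamate transporter whose promoter drove Cre, was at 810.4, 675 and 687 CPM against 928, 849.7 and 846 CPM (log2 ratio -0.20, SE 0.04). In depth-matched cells the ratio was -0.67 for Apoe and -0.48 for Glul, and it changed sign for Rlbp1, to 0.07, and for Slc1a3, to 0.03.

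The reactive gliosis list was split. Vim, Nes, S100a6 and Timp1 were higher in kept cells and 12 of 20 genes were lower, with a median of -0.53. Vim, an intermediate filament gene, was at 4085, 4191 and 3696 CPM in kept and 3169, 2828 and 2558 CPM in left-out cells. Gfap (chr11:102887336-102900912, mm10), the filament gene most used to mark gliosis, was at 392, 311 and 235 CPM in kept and 979, 777 and 753 CPM in left-out cells. These 2 filament genes therefore differed in opposite directions, by 0.56 (SE 0.05) and -1.37 (SE 0.09). Lcn2, a secreted iron-siderophore binder, had a log2 ratio of -3.0 (SE 0.78), and its level of 244 CPM in kept cells of run 2 stood above the 24.2 and 10.4 CPM of the other runs. These sums include the mostly left-out astrocyte-like cluster 19, which has Lcn2 and Serpina3n among its leading genes. The differences were smaller among cells of the same cluster, as given below.

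Immediate early genes were lower in kept cells in 18 of 19 cases, with a median of -1.0 and Dusp1 as the gene that did not pass. Atf3 (chr1:191170296-191218039, mm10), a stress-induced transcription factor gene, differed between runs on both sides, at 24.3, 66.4 and 187 CPM in kept and 56.7, 198 and 525 CPM in left-out cells. Within each run the left-out value was more than the kept value, and the log2 ratio was -1.36 (SE 0.08, edgeR adjusted p = 0.000109). Junb was at 412, 527 and 780.2 CPM against 956, 1416 and 2437 CPM. Btg2, an antiproliferative gene of the same list, had a ratio of -1.28 (SE 0.08), Jun one of -0.73 (SE 0.08) and Fos one of -0.79 (SE 0.08).

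The mitochondrial and nuclear RNA lists followed the quality measures. Of 13 mitochondrial genes 7 were lower and 1, mt-Nd6, was higher in kept cells, with mt-Co3 at -0.52 (SE 0.04). Of 6 nuclear-retained RNAs 5 were lower, among them Malat1 at 30275, 28226 and 24178 CPM in kept against 36954, 39142 and 37715 CPM in left-out cells. In depth-matched cells Malat1 no longer passed, at -0.06. Ribosomal protein genes were higher in 73 and lower in 3 of 110, with a median of 0.17. In depth-matched cells 23 of 110 were higher and 0 lower, with a median of 0.07. The higher share there was near the 21.1% of all genes that were higher, while 21% of all genes were lower.

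Stress lists were mixed. Heat shock genes were higher in 9 and lower in 2 of 15 (Hspb1 and Hspa1b lower, Hspa8 higher by 0.54, SE 0.04). Integrated stress response genes were higher in 8 and lower in 3 of 15. Within that list Phgdh and Psat1, enzymes of serine synthesis, were higher by 1.5 (SE 0.07) and 0.81 (SE 0.05), while the stress phosphatase subunit gene Ppp1r15a had a ratio of -0.77 (SE 0.11). Of 16 p53 and apoptosis genes 9 were higher and 3 lower, with Trp53 at 0.73 (SE 0.07) and the death effector gene Bax at 0.48 (SE 0.04).

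Interferon genes were higher in 2 and lower in 4 of 17, and chemokines higher in 2 and lower in 5 of 14. Csf1, a growth factor for microglia, was higher by 1.55 (SE 0.04) and Cxcl12 by 1.09 (SE 0.09). The 5 lower chemokine list genes were Cxcl1, Ccl12, Ccl3, Ccl4 and Tnf. The summed chemokine list was at 352, 2066 and 473 CPM in kept cells of runs 1, 2 and 3. In left-out cells it was at 304, 672 and 422 CPM, so the sides differed most in run 2. Neurogenic genes were higher in 2 and lower in 5 of 13, and Neurod1, a transcription factor gene that rods also express, had a ratio of -1.42 (SE 0.18). The glycolysis list gave 5 higher and 7 lower of 18 and the metallothionein and iron list 2 higher and 4 lower of 13, with medians of -0.04 and -0.07. Over all genes tested 33.3% were higher and 31.5% lower, and none of these lists stood clearly above either share.

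Marker lists of other cell types were not all lower in kept cells. Ganglion cell markers were higher in 2 and lower in 1 of 5, and horizontal cell markers higher in 2 and lower in 1 of 3. Amacrine markers were higher in 1 and lower in 1 of 5, and oligodendrocyte markers higher in 1 and lower in 1 of 4. Over all genes tested 33.3% were higher and 31.5% lower, and these lists of 3 to 5 genes are too short to be told apart from those shares. Of 6 endothelial markers tested 4 were lower and none was higher, while of 5 pericyte markers 3 were lower and 2 higher. All 11 rod genes were lower, with a median of -1.64, and their summed level was 484, 635 and 666 CPM in kept and 2267, 1739 and 1894 CPM in left-out cells. Gngt1 (chr6:3993792-3997436, mm10), which encodes the gamma subunit of rod transducin, was at 43.3, 57.9 and 66.8 CPM against 219, 177 and 197 CPM (log2 ratio -1.76, SE 0.15, edgeR adjusted p = 0.000237). Of 9 cone genes 8 were lower, and their sum was 12.6, 23.5 and 26.9 CPM against 139.6, 121 and 194 CPM.

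Microglial genes were nearly absent from the kept cells. The summed microglia list was at 9.10, 4.56 and 2.97 CPM in kept and 361, 110.5 and 33.3 CPM in left-out cells, and 8 of the 9 genes tested were lower. C1qa, a complement gene of microglia, was at 1.03, 0.425 and 0.0165 CPM against 75, 21.3 and 5.15 CPM. Spp1, which led the microglia-like cluster, was at 3.28, 1.80 and 0.281 CPM against 283, 124 and 5.07 CPM. The summed astrocyte list was at 1175, 908 and 817 CPM in kept and 2255, 1749 and 1755 CPM in left-out cells, a smaller difference, and several of its genes are also expressed by Müller glia. Of its 8 genes 6 were lower, while Fbln5 and Thbs1 were higher. The defining astrocyte gene Pax2 was at 0.0702, 0.0750 and 0.116 CPM in kept and 3.99, 4.99 and 4.74 CPM in left-out cells, and S100b had a log2 ratio of -3.24 (SE 0.09).

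The comparison was repeated within the Müller glia-like clusters alone. Of 14487 genes tested, 4634 (32%) were higher and 4386 (30.3%) lower in kept cells. There 26 of 29 Müller identity genes were still lower in kept cells (median -0.65), all 43 S phase genes were higher (1.41), 18 of 19 immediate early genes were lower (-0.97), and 15 of 21 YAP targets were higher and 2 lower (0.78). Of 20 reactive gliosis genes 5 were higher and 10 lower there, with a median of -0.45. The chemokine list changed there to 3 higher and 1 lower of 12, with a median of 0.79. Most cells of the chemokine-led clusters 10 and 18, both part of this comparison, came from run 2.

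A further comparison used cells with few cycle transcripts. Müller glia-like cells with no UMI of either cycle list among 1000 numbered 1611 kept and 1625 left out. Of 11615 genes tested between them, 1764 (15.2%) were higher and 1455 (12.5%) lower in kept cells. This choice of cells may not remove every cycling cell, and the cycle lists themselves were used to make it. Of 31 S phase genes 4 were higher and 0 lower. Of 33 G2 and M phase genes 5 were higher and 2 lower, with a median of -0.09. Both shares of higher genes were near that of all genes tested. Of 18 G1 regulators 8 were higher and 3 lower. All 19 immediate early genes were lower, with a median of -0.84. Of 20 YAP targets 11 were higher and 1, Cyr61, was lower, with a median of 0.72. Of 20 reactive gliosis genes 7 were higher and 5 lower, with a median of -0.18. Müller identity genes were lower in 17 of 29 and higher in none, with a median of -0.32, and chemokines were higher in 5 and lower in 1 of 8, with a median of 2.14. In all cells the summed chemokine list differed most in run 2, and the part of that run in this median was not tested.

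Cells of the same cluster were compared next, a comparison added after the first results were seen. Within each run and cluster an equal number of kept and left-out cells was drawn, giving 4281 cells on each side. The difference in median UMIs then fell from 2697 to 265 and that in mitochondrial share from -1.05 to -0.0805 percentage points, and the ribosomal difference changed sign, from 1.02 to -0.692 points. Of 13218 genes tested, 1711 (12.9%) were higher and 1590 (12%) lower in kept cells. Without the run as a block, 5 were higher and 57 lower, and DESeq2 called 576 and 308. Matched on depth as well as cluster, 408 and 451 were called.

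In the sums of cluster-matched cells, rod RNA, immediate early genes and mitotic genes still differed. Cells were matched by number and not by UMIs. A cluster with more UMIs per cell on 1 side therefore weighed more in the sum of that side. All 11 rod genes stayed lower in kept cells, with a median of -1.42 against -1.64 before, and Gngt1 was at 42.3, 53.5 and 61.7 CPM in kept and 146, 135 and 134 CPM in left-out cells (log2 ratio -1.42, SE 0.08, edgeR adjusted p = 6.48e-08). The 8 largest decreases were all photoreceptor genes, among them Cnga1 at -1.42 (SE 0.09) and Sag at -1.28 (SE 0.08). All 19 immediate early genes were lower, with a median of -0.48, Atf3 at -0.86 (SE 0.10) and Junb at -0.57 (SE 0.04).

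Of 55 G2 and M phase genes 51 were higher in the kept sums of cluster-matched cells, with a median of 0.57. The dividing cluster 17 had median UMIs of 27956 in its kept and 11676 in its left-out cells, so it weighed more in the kept sums. The mitotic cluster 4 went the other way, at 24514 and 31080. How much of the mitotic difference came from these weights was not tested. Ccnb1, the cyclin that partners Cdk1, was at 139, 162 and 205 CPM in kept and 65.8, 75.6 and 98.1 CPM in left-out cells, without overlap (log2 ratio 1.07, SE 0.04, edgeR adjusted p = 8.53e-10). Nusap1, a spindle protein gene, was higher by 0.90 (SE 0.05). S phase genes were higher in 29 of 43, with a median of 0.30.

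The Müller, reactive gliosis, YAP and ribosomal differences shrank. Müller identity genes were lower in 19 of 29 and higher in none, with a median of -0.14 against -0.63. Glul had a ratio of -0.28 (SE 0.03) and Rlbp1 one of 0.00 (SE 0.03, edgeR adjusted p = 0.982). Of 20 reactive gliosis genes 3 were higher and 10 lower, with a median of -0.24 against -0.53. Gfap had a ratio of -0.25 (SE 0.03), and Lcn2 did not pass, at -0.31 (SE 0.30, edgeR adjusted p = 0.493). YAP targets were higher in 7 and lower in 2 of 21, with a median of 0.07, and Amotl2 did not pass (112, 88.8 and 145 CPM against 105, 78.5 and 153 CPM, log2 ratio 0.05, SE 0.05, edgeR adjusted p = 0.468). Ribosomal protein genes were higher in 3 and lower in 7 of 109. Whether the list medians differed between the 2 comparisons was not tested, since the comparisons share cells.

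**Figure D4:**
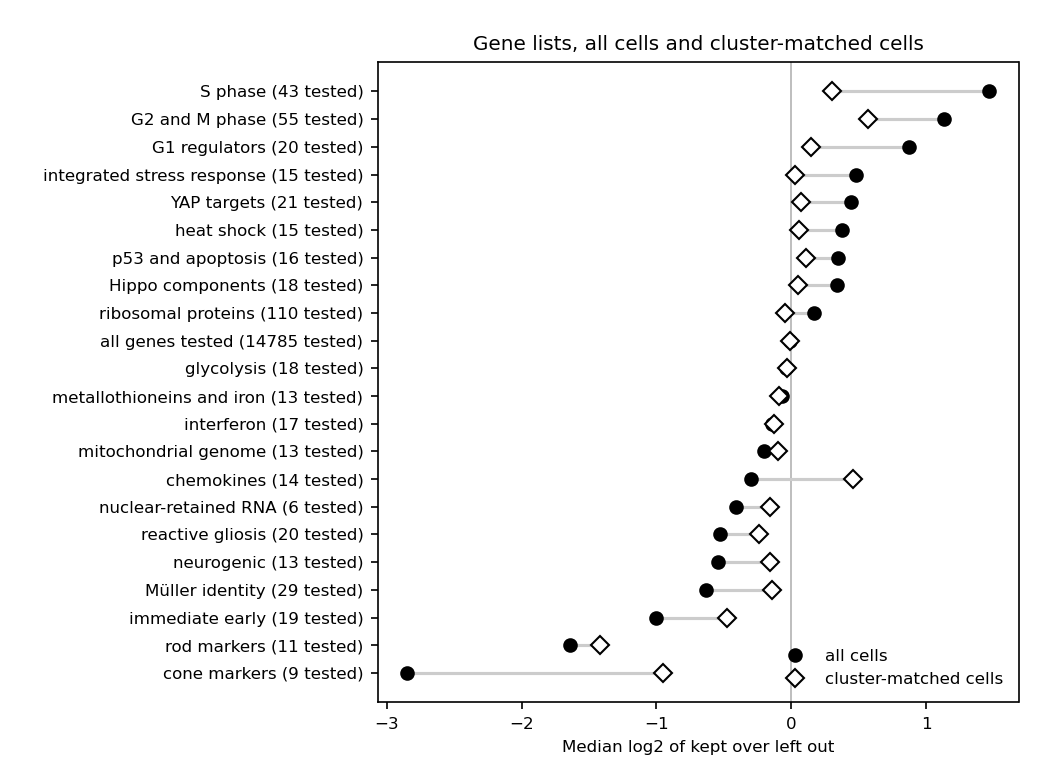
Median log2 ratio of kept over left out (horizontal axis) of each gene list in all cells (filled circles) and in equal numbers of kept and left-out cells of each cluster and run (open diamonds). Numbers in brackets are genes tested in all cells; the rod and immediate early medians stay below 0 in both, at -1.64 and -1.42 and at -1.0 and -0.48, while the YAP target median moves from 0.44 to 0.07.

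Cluster 17, one of the divided clusters, was described further, and was chosen for this after its values were seen. Its leading genes, Cdc20, Ccnb1, Cenpa and Hmmr, act in G2 and mitosis, and 459 of its cells were kept and 680 left out. Median UMIs were 26848, 30471 and 24861 in kept cells and 10862, 12040 and 12629 in left-out cells of runs 1, 2 and 3. The lowest kept median was thus well above the highest left-out one. The share of mitochondrial UMIs was 2.86%, 2.58% and 2.94% against 3.24%, 3.19% and 3.54%.

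Within this cluster 262 of 10278 genes (2.55%) were higher and 390 (3.79%) lower in kept cells by edgeR's test. Ube2c (chr2:164769898-164778822, mm10) was at 467, 529 and 403 CPM in kept and 135, 197 and 169.8 CPM in left-out cells (log2 ratio 1.43, SE 0.06). Cdk1 was higher by 1.48 (SE 0.07), the mitotic kinase gene Aurkb by 1.48 (SE 0.10), the checkpoint gene Bub3 by 1.28 (SE 0.07) and Prc1 by 1.24 (SE 0.06). Ccnb1, a leading gene of the cluster, was at 545, 602 and 559 CPM against 316, 389 and 351 CPM. Of 55 G2 and M phase genes 17 were higher and none was lower.

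Other mitotic genes, such as Cdc20, Hmmr and Mki67, did not pass the test in cluster 17. Cdc20, which activates the complex that ends mitosis, was at 643, 676 and 672 CPM in kept and 682, 663 and 639 CPM in left-out cells, with overlapping ranges. Hmmr had a log2 ratio of 0.04 (SE 0.06, edgeR adjusted p = 0.798) and Mki67 one of 0.09 (SE 0.06, edgeR adjusted p = 0.538). None of 43 S phase genes passed the test. Since kept cells held more UMIs, the number of Cdc20 UMIs per cell was 16.1, 20.6 and 16.9 in kept and 8.06, 8.99 and 8.55 in left-out cells.

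Rod RNA behaved otherwise. All 11 rod genes were lower in kept cells of cluster 17, and Gngt1 was at 47.4, 21.7 and 34.7 CPM against 227, 78.2 and 91.3 CPM (log2 ratio -1.92, SE 0.09). Counted per cell, kept cells held 1.19, 0.659 and 0.873 Gngt1 UMIs and left-out cells 2.68, 1.06 and 1.22, so in each run the left-out cells held more Gngt1 UMIs although they held fewer UMIs in all. Of 105 ribosomal protein genes 60 were lower and of 13 mitochondrial genes 11 were lower in kept cells. With each cell thinned to 3000 UMIs, 84 genes were higher and 78 lower.

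**Figure D5:**
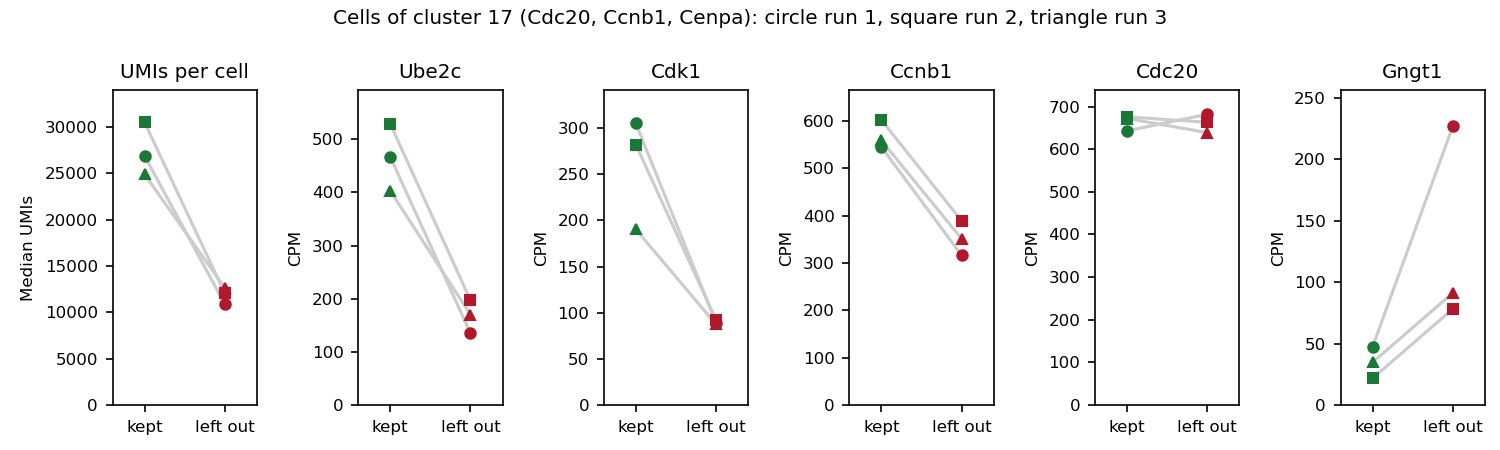
Median UMIs per cell and levels in CPM (vertical axes) of Ube2c, Cdk1, Ccnb1, Cdc20 and Gngt1 in kept (green) and left-out (red) cells of cluster 17, with lines joining the sides of a run. Kept cells lie higher for UMIs, Ube2c, Cdk1 and Ccnb1 and lower for Gngt1 in 3 of 3 runs, and the values for Cdc20 cross.

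The mostly kept mitotic cluster 4 gave the reverse order of depth. Median UMIs of its left-out cells were 34161, 31173 and 28575, above the 24568, 25742 and 23446 of its kept cells. Gfap was at 119, 111 and 77.7 CPM in its left-out cells and 32.6, 28.9 and 17 CPM in the kept ones. Apoe was at 1635, 1588 and 1386 CPM against 1205, 1120 and 1040 CPM. Neither gene's ranges overlapped. These values are a description of a cluster picked after its values were seen, and the part that droplets with a second cell had in them was not tested.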

How the data were processed

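Single-cell RNA was measured in 3 libraries of tdTomato-positive retinal cells. The authors deposited raw UMI counts per gene and cell, which the submitters' processing notes tie to Cell Ranger, without a version, and the mm10 genome. They also deposited natural log values made with Seurat 2.3.4, per the same notes. Each was the natural log of 1 plus the cell's count scaled to 10000 UMIs, within 5.00e-07, over 18478 genes. The count table held no cell under 3538 UMIs, so empty droplets had been removed before deposit. Runs totalled 94858762, 122888236 and 97032672 UMIs. Barcodes shared between pairs of runs numbered 95, 83 and 108, of which 43, 37 and 51 were on the same side in both runs. No cell was removed here and no doublet caller was run, so doublets stayed in. Intervals and limits from counts of 0 (3 counts) cover counting error only.

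All cells were clustered together (2000 variable genes, 30 principal components, 15 neighbours, Leiden resolution 1.0, scanpy 1.11.5, igraph 0.11.9, Python 3.11.15). Names ending in "like" rest on transcripts. A cluster took another type's name with at least 3 of that type's markers at 50 CPM and 4 times the level elsewhere, if its median Müller marker was at most 0.5 times the level elsewhere. It was Müller glia-like with at least 5 Müller markers at 100 CPM and no other type. A cluster stayed unnamed where neither held, where more than 1 other type passed, or where another type had more markers than its own among the 10 genes leading it (cluster 14). The microglia-like and astrocyte-like clusters also held 7 Müller markers at 100 CPM. The Müller glia-like name therefore rests mainly on no other type passing. In the dividing clusters 3, 4, 17 and 18 the median Müller marker was at 0.322, 0.281, 0.272 and 0.245 times the level elsewhere. It was at 0.250 times in the microglia-like and 0.263 times in the astrocyte-like cluster.

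Counts summed per run and side were tested with edgeR 4.0.16 (R 4.3.3; filterByExpr, TMM, quasi-likelihood, run as a block, Benjamini-Hochberg over all genes tested, adjusted p under 0.05). Both sides of a run come from 1 library, which pairs them by construction. SE is the absolute log2 ratio divided by the square root of F. DESeq2 1.42.0 was the other tool. The named genes were the 12 (8 within clusters, 6 in cluster 17) largest changes each way among called genes at 50 CPM or more with 1 direction in all runs, the 3 most abundant called genes of a list, and a fixed set of genes. Slc1a3, Aldh1a1, Hmga2, Pax2, S100b, Opn1mw and Atf3, genes carried from one comparison to another, and the list members named without values were added after values were seen. Some genes named by this rule are not reported here. Members, 19 pathway lists and 17 cell type lists were chosen with earlier results of these data known. Alternatives were DESeq2, RLE scaling, all genes without a filter, a fit without the block, 2 of the runs, thinned cells, cells matched on depth or cluster, and subsets of cells. Tested on simulated data with 200 changed genes, the all-cell fit recovered 78.6% of 1.5-fold and 98% of 2-fold changes over 14785 genes with 3.89% of calls false. The within-cluster fit recovered 88% and 99% over 13218 genes (5.15% false) and the cluster 17 fit 71.7% and 94.8% over 10278 (4.68% false). The simulation gave all genes 1 common dispersion and changed far fewer genes than were called in the data. Its recovered and false shares may therefore not hold for the data. Positions are from GENCODE M21.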

Additional observations from a re-analysis of the deposited data

How the results depend on the processing

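Run pairing comes from the libraries. Without the replicate block, 3477 genes were higher and 3299 lower in kept cells, against 4926 and 4655 with it. Leaving out 1 run gave 3954 to 4753 higher and 3842 to 4355 lower. Counts fell to 3165 and 2828 with cells thinned to 3000 UMIs, 3018 and 3006 in depth-matched cells, 1710 and 1458 in cells without cycle list UMIs, and, chosen after seeing the data, 1711 and 1590 in cluster-matched cells and 1764 and 1455 in Müller glia-like cells without cycle list UMIs. The cause was not tested, although each alternative has fewer cells or UMIs. Other settings (RLE size factors, no filter, DESeq2, left-out cells inside the kept ranges, Müller glia-like clusters, without cluster 0) stayed within 1.5 times.

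All alternatives of the comparison within clusters were added after seeing the data. It gave 576 higher and 308 lower by DESeq2, 5 and 57 without the replicate block, 408 and 451 matched on cluster and depth, and 1264 to 1459 and 1076 to 1254 without 1 run. The same holds for cluster 17, where 262 and 390 became 59 and 122 by DESeq2, 39 and 11 without the block, 84 and 78 thinned, and 157 to 208 and 234 to 270 without 1 run (157 higher without run 2, 167 without run 1, 234 lower without run 3, 255 without run 2).

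The ribosomal share difference of 1.02 points became -0.692 in cluster-matched cells. The highest kept share of a cluster, 94.9%, was 93.2% at resolution 0.5, 100% at resolution 2.0 and 94.3% to 95.3% without 1 run.

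Some named genes changed sign in all cells. In depth-matched cells Anp32e was -0.01, Crym 0.27, Rlbp1 0.07 and Slc1a3 0.03. In cluster-matched cells Bst2 was -0.13, Crym 0.04, Rlbp1 0.00, Rpl41 -0.06 and Rplp1 -0.05. In cells without cycle list UMIs Crym was 0.33, Fth1 0.14, Prc1 -0.42, Slc1a3 0.03 and Spc25 -0.30, and among the Müller glia-like ones Crym was 0.19, Fth1 0.15, Prc1 -0.60, Slc1a3 0.00, Spc25 -0.42 and Spp1 0.31. Thinned, Crym was 0.19. Within Müller glia-like clusters Ctgf was 0.07, and Spc25 was -0.03 to 0.21 without 1 run, negative without run 3. In cluster 17 the thinned values were 0.20 for Apoe, 0.83 for Gfap and 0.10 for Junb, and Gfap was -0.18 to 0.11 without 1 run. Of all other values of named genes, 1316, 235 and 122 kept their direction and side of the threshold in all cells, within clusters and in cluster 17. The call was lost in 97, 15 and 17 values, and gained in 7 in all cells and 3 within clusters.

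Depth limits the smallest clusters, with 28 to 83 cells, and 3 runs cannot take a permutation p under 0.25.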

Other observations

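The order of cells differed between the 2 deposited tables. In the raw table each run's cells stood in barcode order. In the normalised table that order broke 231 times, and 22 unbroken stretches of at least 60 cells held 11989 of the 13511 kept cells. Many stretches were mostly of 1 cluster: one of 868 cells was 94.9% cluster 10, one of 1041 was 90.2% cluster 2, one of 597 was 94.0% cluster 3 and one of 126 was 96.0% cluster 5. Others mixed related clusters, such as one of 961 cells with 61.9% cluster 4 and 36.2% cluster 17. The clusters used here were made from the raw counts without the order of either table.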
